A study of Homo sapiens with 12 samples.

Results

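PTD-DRBD joins a cell-penetrating peptide transduction domain, which carries cargo across the cell membrane, to a domain that binds double-stranded RNA and so masks the charge of a small interfering RNA (siRNA). The results below compare human H1299 cells given an siRNA against GAPDH by PTD-DRBD with cells given PBS buffer, both taken 12 h after treatment. The members were the 4 arrays with these labels, 2 per group, of 12 arrays in the series, and the whole array was described across 12117 genes. H1299 is a p53-null non-small cell lung carcinoma line, grown here in DMEM with 10% FCS and exposed to the agents for 6 h before washing. The other 8 arrays held PTD-DRBD and control cells at 24 h and cells given GAPDH siRNA by lipofection at 12 h and 24 h. The control received neither PTD-DRBD nor any siRNA, so that effects of the carrier, of the siRNA and of the loss of GAPDH cannot be told apart. The labels do not state whether both arrays of a group stem from different cultures, and p-values then measure the spread between these arrays, which may be technical.

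An siRNA is loaded into the RNA-induced silencing complex, where it guides cleavage of the matching mRNA. Cells can also answer foreign double-stranded RNA through interferon, and answer amino acid shortage or other stress through the transcription factor ATF4, whose targets restore amino acid supply. TGF-beta, acting through SMAD proteins, controls matrix and growth-arrest genes in epithelial cells. These responses and the routes of uptake were among the 45 gene lists examined.

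The line's defining markers KRT18, VIM, CDH2, KRT8 and KRT7 were detected on all 12 arrays. Of 15 markers of leukocytes, erythrocytes, endothelium, fibroblasts and differentiated airway cells with a probe, 11 were undetected on the 4 arrays. Their raw intensity averaged 60.9 and 62.7 per probe on the PTD-DRBD arrays, against 67.9 and 66.4 on the control arrays, below the median of all probes on each array. The PTD-DRBD arrays were also slightly dimmer as a whole, with median raw intensities of 65.9 and 68.6, against 73.1 and 70.4 on the control arrays. They had 17990 and 18413 detected probes, against 18624 and 18528 on the control arrays. Quantile normalization put the arrays on 1 scale, and the part of this dimness in single results was not tested.

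GAPDH, the glycolytic enzyme targeted by the siRNA and encoded on chromosome 12, checks the labels. Its raw intensity was 3360 and 3398 on the PTD-DRBD arrays, against 35974 and 34102 on the control arrays. On the normalized log2 scale it fell by 3.36 (SE 0.079, limma adjusted p = 9.85e-10), which left 9.77% of the control level. The other 2 GAPDH probes had raw means of 1466 ± 71.7 and 1246 ± 43.7 with PTD-DRBD, against 24306 ± 1940 and 21613 ± 948 in the control (SD, n = 2). The groups lay far apart on every probe.

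No gene moved as far as the target. Of 12117 genes, 955 or 7.88% passed an adjusted p of 0.05 in limma, 414 higher (3.42%) and 541 lower (4.46%) with PTD-DRBD. Most of these changes were small. Their median size was 0.42 log2, and that of all genes 0.12. At least 1.6-fold changes numbered 85 (0.701%), with 34 higher (0.281%) and 51 lower (0.421%). Changes of 2-fold or more numbered 16 with GAPDH, 9 of them rises and 7 falls. These folds are of background-corrected values. Without that correction AMHR2 and TPPP3 rose 2.95-fold and 2.11-fold, and the other rises of this size lay below 2-fold. The falls of ZNF467, FZD7 and RAPGEF3 then lay below it too, while those of GAPDH, NOL12, GPR137B and BHLHE40 did not. The 2 groups' arrays did not overlap for 6165 genes, or 50.9%, so that separation of the arrays alone says little. Without any 1 of the 4 arrays, between 309 and 434 genes passed. With the main axis of replicate differences as a covariate, 1677 passed.

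**Figure D1:**
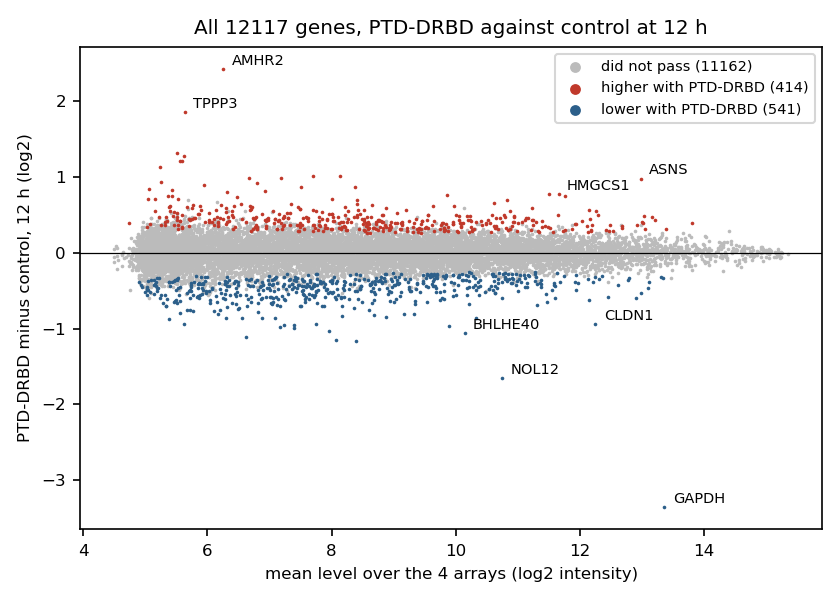
Each point is 1 of 12117 genes, with its mean log2 intensity over the 4 arrays on the horizontal axis and the log2 difference of PTD-DRBD minus control at 12 h on the vertical axis. The 414 red genes were higher and the 541 blue genes lower at an adjusted p under 0.05, and GAPDH lies alone at −3.36.

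The largest rise was of AMHR2, a type II receptor of the TGF-beta superfamily that binds anti-Müllerian hormone. Its log2 level was 7.56 and 7.37 with PTD-DRBD, against 5.18 and 4.90 in the control (log2 2.42, SE 0.10, limma adjusted p = 3.74e-07), and it was detected on 1 of 2 control arrays. That is a 5.37-fold rise on background-corrected values, against 2.95-fold without background correction. Next came genes detected on both PTD-DRBD arrays and on neither control array, so that their folds are lower bounds, which hold for background-corrected values only. TPPP3, a tubulin-binding protein that promotes microtubule assembly, was at 6.57 and 6.56 with PTD-DRBD, against 4.63 and 4.80 in the control, at least 2.83-fold higher (limma adjusted p = 9.02e-06). MMP10, or stromelysin-2, a matrix-degrading protease, was at 6.05 and 6.29, against 4.81 and 4.89 in the control, at least 2.16-fold higher (limma adjusted p = 5.44e-05). SPINT2, a Kunitz-type inhibitor of serine proteases, was at 6.23 and 6.31, against 4.99 and 4.99 in the control, at least 2.31-fold higher (limma adjusted p = 4.99e-05). Without background correction the fitted folds were 2.11 for TPPP3, 1.65 for MMP10 and 1.64 for SPINT2, below those bounds, and each still passed. None of these sets of arrays overlapped.

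KRT34, a hair keratin, was at least 2.2-fold higher (means 6.20 with PTD-DRBD and 4.98 in the control, limma adjusted p = 6.16e-05). The carboxypeptidase CPA4 was at least 1.68-fold higher (means 5.81 and 4.68 with PTD-DRBD and in the control, limma adjusted p = 0.000123), and the leucine zipper factor BATF2 at least 1.58-fold (means 5.72 and 4.79, limma adjusted p = 0.00239). Without background correction these folds were 1.59, 1.54 and 1.41. CCN3, a secreted matricellular protein, was detected on all 4 arrays, at 8.09 and 8.32 with PTD-DRBD, against 7.30 and 7.08 in the control (log2 1.02, SE 0.10, limma adjusted p = 0.000385). SLC6A9, the glycine transporter GlyT1, rose by 0.98 and TENT5B, a poly(A) polymerase, by 0.98 (limma adjusted p = 0.000465 and 0.000385). A further SLC6A9 probe was at 0.42 and did not pass (limma adjusted p = 0.299). LETM2, a mitochondrial membrane protein, rose by 0.92, and TRAF3IP2, the Act1 adaptor of interleukin-17 receptors, by 0.89 (limma adjusted p = 0.00149 and 0.0033).

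Among the falls, NOL12, a nucleolar protein of ribosomal RNA processing, was the largest after the target. It was at 10.09 and 9.75 with PTD-DRBD, against 11.53 and 11.62 in the control (log2 −1.65, SE 0.12, limma adjusted p = 3.33e-05). It was the only one of 24 tested genes of the list of nucleolus and ribosome assembly to pass (4.17%, against 4.46% of all genes lower). That list's median was 0.10. GPR137B, a lysosomal membrane protein, was at 7.78 and 7.84 with PTD-DRBD, against 8.89 and 9.06 in the control (log2 −1.17, SE 0.095, limma adjusted p = 6.6e-05). The Wnt receptor FZD7 was at 5.87 and 6.27, against 7.29 and 7.07 in the control (log2 −1.11, SE 0.14, limma adjusted p = 0.00125). GPR176, an orphan receptor, fell by 0.97 and CLDN1, the tight junction protein claudin-1, by 0.94 (limma adjusted p = 0.00656 and 0.00502). Both lost their call without the first control or the first PTD-DRBD array, with adjusted p up to 0.0551 and 0.0508.

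ZNF467, a zinc finger protein, was at 7.45 and 7.53 with PTD-DRBD, against 8.64 and 8.65 in the control (log2 −1.15, SE 0.078, limma adjusted p = 3.03e-05). RAPGEF3, the cAMP-activated exchange factor EPAC1, was at 7.45 and 7.43, against 8.54 and 8.42 in the control (log2 −1.04, SE 0.085, limma adjusted p = 6.6e-05). PRDM1, the repressor BLIMP1, was at 6.90 and 6.93, against 7.88 and 7.86 in the control (log2 −0.96, SE 0.077, limma adjusted p = 6.16e-05), while its further probe was at −0.19 and did not pass (limma adjusted p = 0.616). The coactivator CITED4 fell by 0.96 and HES1, the repressor downstream of Notch, by 0.96 (limma adjusted p = 0.0012 and 0.000362). CDKN2B, the cell cycle inhibitor p15 and a classical TGF-beta target, was at 7.14 and 7.43 with PTD-DRBD, against 8.15 and 8.30 in the control (log2 −0.94, SE 0.12, limma adjusted p = 0.00126). SYCE2, a synaptonemal complex protein, was detected on neither PTD-DRBD array and was at least 1.66-fold lower (means 4.95 with PTD-DRBD and 5.82 in the control, limma adjusted p = 0.00291), or 1.38-fold without background correction.

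**Figure D2:**
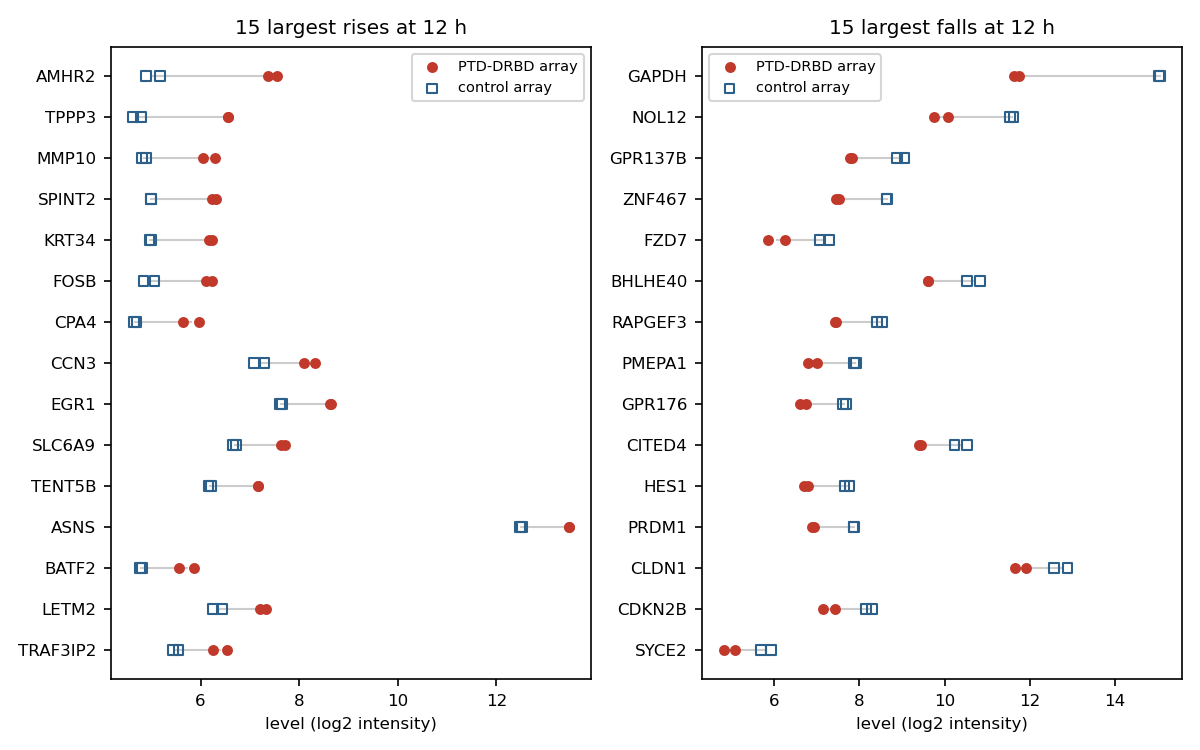
The log2 intensity of the 15 genes with the largest rises (left) and the 15 with the largest falls (right) is given on the horizontal axis, with filled red circles for the 2 PTD-DRBD arrays and open blue squares for the 2 control arrays. The arrays of the groups do not overlap for any gene, as the choice of genes requires, and GAPDH has the widest gap.

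Among the lists, genes of the ATF4 stress response rose together. Of 31 genes 28 could be tested, and 18 of them were higher and 0 lower with PTD-DRBD, with a median of 0.44, against 3.42% of all genes higher and a median of 0.01. At an unadjusted p under 0.05 there were 23 higher and 0 lower. The share of all genes under this unadjusted threshold is not given. Unadjusted counts, here and for the lists below, thus have no background beside them and show no excess by themselves. The median was 0.41 on the first PTD-DRBD array and 0.47 on the second, each against the control mean. Between 13 and 14 members passed without any 1 of the 4 arrays. The mRNA of ATF4 itself, which is controlled mainly at translation, was at 14.44 and 14.66 with PTD-DRBD, against 14.26 and 14.28 in the control, and did not pass (log2 0.28, SE 0.083, limma adjusted p = 0.0613).

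The genes of amino acid supply come first. ASNS, which makes asparagine, was at 13.48 and 13.47 with PTD-DRBD, against 12.51 and 12.48 in the control (log2 0.98, SE 0.072, limma adjusted p = 4.99e-05). Its 2 arrays per group differed by less than 0.05, and it was 1.97-fold higher with PTD-DRBD. The serine pathway enzymes PSAT1 and PHGDH rose by 0.75 and 0.49, and the mitochondrial folate enzyme MTHFD2 by 0.44 (limma adjusted p = 0.000366, 0.00297 and 0.00464). PSPH of the same serine pathway was at −0.09 and did not pass (limma adjusted p = 0.739). SLC3A2, the heavy chain of several amino acid transporters, rose by 0.65 (limma adjusted p = 0.00126). The transporters SLC7A5, SLC7A11 and SLC1A5, at 0.36, 0.36 and 0.30, did not pass (limma adjusted p = 0.0629, 0.103 and 0.119). Of the 19 tested cytosolic tRNA synthetases, which charge tRNAs with amino acids, 5 were higher (26.3%, against 3.42% of all genes) and 0 lower. Their median was 0.16. This share is largely a recount of the ATF4 list, which holds SARS1, MARS1, GARS1 and WARS1, all of which passed there. CARS1 is not in the ATF4 list. CARS1 rose by 0.58 (SE 0.083, limma adjusted p = 0.00245) and MARS1 by 0.43 (SE 0.071, limma adjusted p = 0.00549). WARS1 and GARS1 had log2 changes of 0.49 and 0.43 (limma adjusted p = 0.00817 and 0.0219). WARS1 lost its call without the first control or the second PTD-DRBD array, and GARS1 whichever array was left out. Fewer synthetases passed without any 1 array.

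Of the list's regulators, DDIT3, TRIB3 and ATF3 rose, while CEBPG, DDIT4 and NUPR1 at 0.08, 0.12 and 0.13 did not pass (limma adjusted p = 0.594, 0.624 and 0.715). DDIT3, the stress factor CHOP, was at 8.93 and 8.68 with PTD-DRBD, against 7.93 and 7.95 in the control (log2 0.87, SE 0.11, limma adjusted p = 0.0012). The pseudokinase TRIB3 was at 10.23 and 10.24, against 9.41 and 9.55 in the control (log2 0.76, SE 0.086, limma adjusted p = 0.000706), and the factor ATF3 at 8.66 and 8.79, against 8.07 and 8.11 in the control (log2 0.64, SE 0.087, limma adjusted p = 0.00202). STC2, a secreted stress glycoprotein, rose by 0.69 (limma adjusted p = 0.000773). SESN2, an inhibitor of mTORC1 signalling, was undetected on both control arrays and at least 1.33-fold higher (means 5.47 with PTD-DRBD and 4.64 in the control, limma adjusted p = 0.00512). The glutathione-degrading enzyme CHAC1 was likewise undetected in the control and at least 1.26-fold higher (means 5.40 and 4.69, limma adjusted p = 0.0115). Its call was lost when either control array or the first PTD-DRBD array was left out. The endoplasmic reticulum chaperones, which belong to other arms of the unfolded protein response, had 0 of 19 genes higher and 2 lower (10.5%, against 4.46% of all genes). HSPA5, the chaperone BiP, was at −0.34 (limma adjusted p = 0.0166). Its call was lost on the 4 arrays alone, and when the first control or either PTD-DRBD array was left out. Heat shock proteins had 1 of 17 higher (5.88%, against 3.42% of all genes) and 0 lower.

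The promoters of 4 risen ATF4 list genes held the letters TGATGNAA, the core of the element bound by ATF4 with C/EBP partners, within 250 bases before the gene start on either strand. They are printed because these genes rose together, from RefSeq promoters on GRCh38.p14, 5′ to 3′ along the gene's own strand, with the match in capitals. The window of ASNS lies at chr7:97872409-97872658, minus strand, ATF3 at chr1:212565157-212565406, plus strand, CHAC1 at chr15:40953221-40953470, plus strand and GARS1 at chr7:30594628-30594877, plus strand.
ASNS: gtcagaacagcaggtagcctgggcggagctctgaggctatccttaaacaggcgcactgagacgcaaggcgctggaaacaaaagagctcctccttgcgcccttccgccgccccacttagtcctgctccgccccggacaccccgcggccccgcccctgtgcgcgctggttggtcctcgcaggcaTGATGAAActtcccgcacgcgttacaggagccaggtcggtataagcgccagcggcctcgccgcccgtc
ATF3: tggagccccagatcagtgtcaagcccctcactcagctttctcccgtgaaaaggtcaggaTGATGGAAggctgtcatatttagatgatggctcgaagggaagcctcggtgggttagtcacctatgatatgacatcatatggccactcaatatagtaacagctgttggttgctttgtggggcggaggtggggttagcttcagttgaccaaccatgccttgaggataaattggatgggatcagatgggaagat
CHAC1: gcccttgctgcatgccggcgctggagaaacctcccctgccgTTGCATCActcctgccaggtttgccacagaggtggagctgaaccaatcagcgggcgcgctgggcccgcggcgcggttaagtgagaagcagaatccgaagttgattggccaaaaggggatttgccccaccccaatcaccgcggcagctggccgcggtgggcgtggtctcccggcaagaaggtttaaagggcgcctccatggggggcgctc
GARS1: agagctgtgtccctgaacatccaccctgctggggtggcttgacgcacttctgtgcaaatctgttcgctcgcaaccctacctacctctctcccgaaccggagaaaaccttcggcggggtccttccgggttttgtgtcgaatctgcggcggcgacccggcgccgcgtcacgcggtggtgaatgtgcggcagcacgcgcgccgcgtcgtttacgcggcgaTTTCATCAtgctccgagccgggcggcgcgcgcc
Of the 24 tested list genes with a RefSeq promoter, 7 held the letters, and of the 17 risen ones among the 24 these 4. The other matches were in CEBPG, SLC1A5 and AARS1, which did not pass, so that the letters were not confined to risen members. Over all 9919 tested genes with a RefSeq promoter, 2.35% held the letters. The letters were chosen with the list's result known, and a match is a description of the window, not a bound site.

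Genes of the TGF-beta and SMAD list were lower. Of 18 genes 16 could be tested, and 10 were lower and 0 higher with PTD-DRBD, with a median of −0.55, against 4.46% of all genes lower. All 16 had a negative log2 change, between −1.06 and −0.01, except that TGFB1 was at 0.14 without the first PTD-DRBD array and 0.01 without the second control array. At an unadjusted p under 0.05 there were 14 lower and 0 higher. On the first PTD-DRBD array the median was −0.60 and on the second −0.52 against the control mean, and 7 to 8 members passed without any 1 of the 4 arrays. The ligands come first. TGFB1 was at 5.96 and 6.25 with PTD-DRBD, against 6.10 and 6.13 in the control, and did not pass (log2 −0.01, SE 0.11, limma adjusted p = 0.977). TGFB2 had 5.84 and 6.06, against 6.69 and 6.40 in the control (log2 −0.59, SE 0.12, limma adjusted p = 0.0138), a call lost without the first control or the first PTD-DRBD array (adjusted p up to 0.109). TGFB1 was the member nearest to 0, with arrays that overlapped.

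The targets of the pathway follow. BHLHE40, a repressor that also acts in the circadian clock, was at 9.60 and 9.62 with PTD-DRBD, against 10.83 and 10.52 in the control (log2 −1.06, SE 0.097, limma adjusted p = 0.000176). PMEPA1, a TGF-beta-induced membrane protein that limits SMAD signalling, was at 6.79 and 7.01, against 7.92 and 7.87 in the control (log2 −0.996, SE 0.11, limma adjusted p = 0.000477). The folds of control over PTD-DRBD were 2.09 and 1.99 for these 2 genes. Of the matrix proteins, LTBP2, TGFBI and CCN2 fell. LTBP2, a latent TGF-beta binding protein homologue, was at 8.51 and 8.39 with PTD-DRBD, against 9.24 and 9.36 in the control (log2 −0.85, SE 0.11, limma adjusted p = 0.00128). TGFBI, an adhesion protein named for its induction by TGF-beta, was at 10.95 and 10.97, against 11.69 and 11.63 in the control (log2 −0.70, SE 0.07, limma adjusted p = 0.000366). CCN2, connective tissue growth factor and also a YAP target, was at 11.77 and 11.89, against 12.45 and 12.46 in the control (log2 −0.63, SE 0.078, limma adjusted p = 0.00128). THBS1, thrombospondin-1, did not pass (log2 −0.51, SE 0.16, limma adjusted p = 0.0736). The list members SKIL, SMAD7, BAMBI and TGIF1, at −0.24, −0.23, −0.21 and −0.18, did not pass either (limma adjusted p = 0.188, 0.08, 0.117 and 0.267).

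The ID factors, which answer mainly BMP and SMAD1 signals, were lower too. ID1 was at 12.21 and 12.10 with PTD-DRBD, against 12.75 and 12.73 in the control (log2 −0.59, SE 0.083, limma adjusted p = 0.00237). ID2 and ID3 had log2 changes of −0.46 and −0.38 (limma adjusted p = 0.0284 and 0.0384). ID2 lost its call when either control array or the second PTD-DRBD array was left out, and ID3 whichever array was left out. SMAD6, the inhibitory SMAD of that branch, was detected on neither PTD-DRBD array and on both control arrays, and was at least 1.51-fold lower (means 4.99 with PTD-DRBD and 5.69 in the control, limma adjusted p = 0.00208). Without background correction its fitted fold was 1.29, below that bound. Its promoter was the single one of 16 in the list to hold GTCTAGAC, the palindrome bound by SMAD3 and SMAD4 in vitro. Of the 9919 tested genes with a promoter, 13 or 0.131% held it. These letters too were chosen with the list's result known. A match in 1 gene cannot show an excess and is not a bound site. The SMAD6 window is shown for this match alone, at chr15:66701986-66702235, plus strand, with the palindrome in capitals.
SMAD6: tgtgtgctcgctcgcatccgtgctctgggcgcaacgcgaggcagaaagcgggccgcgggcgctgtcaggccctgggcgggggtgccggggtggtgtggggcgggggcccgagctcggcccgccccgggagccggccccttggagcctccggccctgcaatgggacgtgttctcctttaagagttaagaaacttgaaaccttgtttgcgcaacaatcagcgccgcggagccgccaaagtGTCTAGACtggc

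**Figure D3:**
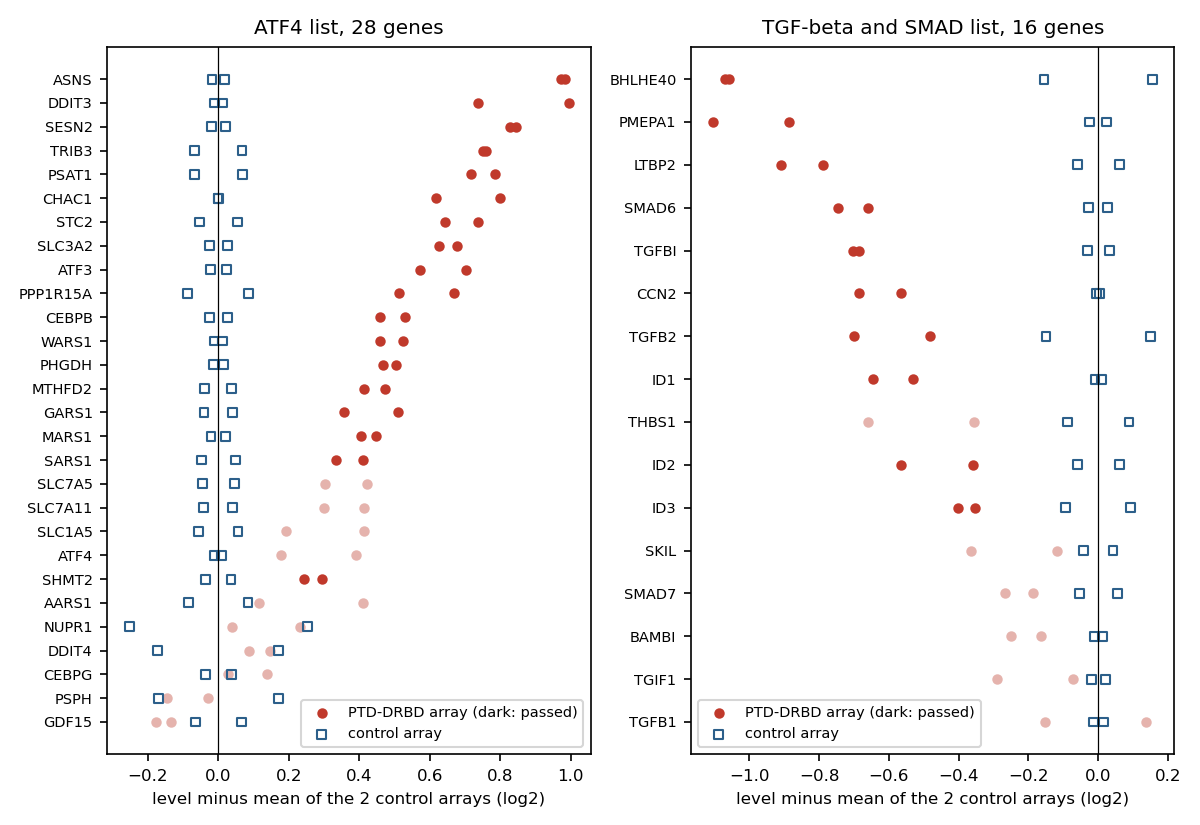
Each row is 1 gene of the ATF4 list (left, 28 genes) or the TGF-beta and SMAD list (right, 16 genes), and the horizontal axis is the log2 level of each array minus the mean of the 2 control arrays. Filled circles are PTD-DRBD arrays, dark where the gene passed, and open squares are control arrays. The PTD-DRBD arrays lie to the right for the 18 risen ATF4 genes and to the left for the 10 lower SMAD genes.

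Immediate early genes, mostly transcription factors made first after a stimulus, moved in both directions. Of 22 tested, 5 were higher (22.7%) and 2 lower (9.09%), against 3.42% and 4.46% of all genes, with a median of −0.10. Without 1 array 3 to 5 were higher and 0 to 1 lower. EGR1 was at 8.63 and 8.65 with PTD-DRBD, against 7.65 and 7.61 in the control (log2 1.01, SE 0.081, limma adjusted p = 6.16e-05). FOSB was at 6.11 and 6.22, against 5.06 and 4.85 in the control (log2 1.21, SE 0.094, limma adjusted p = 5.71e-05). It was detected on 1 of 2 control arrays, and its log2 rise was 0.67 without background correction. ZFP36, which speeds decay of AU-rich mRNAs, rose by 0.48 (limma adjusted p = 0.00997), a call lost without the second control or the first PTD-DRBD array. FOS, at 6.57 and 6.41 against 5.81 and 5.82 in the control, did not pass (log2 0.67, SE 0.29, limma adjusted p = 0.197). The 2 lower ones were JUND, an AP-1 subunit, at −0.42 and NR4A2, an orphan nuclear receptor, at −0.37 (limma adjusted p = 0.0129 and 0.0194). The call of JUND was lost whichever array was left out (adjusted p up to 0.0813), and that of NR4A2 without 3 of the 4 (up to 0.129). JUN and MYC had log2 changes of 0.11 and −0.11 and did not pass (limma adjusted p = 0.69 and 0.572). Among the phosphatases that feed back on MAP kinases, DUSP5 rose by 0.56 (SE 0.079, limma adjusted p = 0.00237) and DUSP10 fell by 0.48 (SE 0.088, limma adjusted p = 0.00887). DUSP10 lost its call when either control array or the first PTD-DRBD array was left out. Its further probe was at −0.14 (limma adjusted p = 0.723).

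Interferon-stimulated genes did not rise past the threshold. Of 39 interferon-stimulated genes 37 had a probe and 27 could be tested, and 0 were higher and 3 lower in limma, 11.1% against 4.46% of all genes (median −0.12), or 1 and 9 at an unadjusted p under 0.05. IFIH1, the sensor MDA5, was at 9.67 and 9.69 with PTD-DRBD, against 10.21 and 10.28 in the control (log2 −0.57, SE 0.076, limma adjusted p = 0.00196). PARP14 was at 7.67 and 7.68, against 8.19 and 8.22 in the control (log2 −0.54, SE 0.083, limma adjusted p = 0.00361). The third, IFI44, lay near background (log2 −0.38, SE 0.083, limma adjusted p = 0.0189). Its call was lost whichever array was left out, and in 8 of 12 other settings in all. Sensors and adaptors of double-stranded RNA had 0 of 15 higher and 1 lower (6.67%), which was again IFIH1 (1 and 4 unadjusted). With the replicate axis as a covariate 1 gene of each list was higher, and 8 and 4 lower. NF-kappaB genes had 0 of 20 higher and 4 lower, 20% against 4.46% of all genes (1 and 9 unadjusted). TRAF1, a signalling adaptor, was at 9.72 and 10.04 with PTD-DRBD, against 10.67 and 10.45 in the control (log2 −0.68, SE 0.11, limma adjusted p = 0.00498). The chemokine CCL2 was at 6.71 and 6.69, against 7.39 and 7.36 in the control (log2 −0.67, SE 0.16, limma adjusted p = 0.0273), a call lost whichever array was left out (adjusted p up to 0.123), and 1 to 2 genes of the list passed without 1 array.

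In the machinery that the siRNA enters, 1 gene passed, or 5.56% of the list, against 7.88% of all genes in either direction. Of 18 tested genes of RNA interference, TNRC6A, which links Argonaute proteins to mRNA decay, was the one, at 7.69 and 7.85 with PTD-DRBD, against 7.07 and 7.25 in the control (log2 0.60, SE 0.084, limma adjusted p = 0.00236). Its 2 further probes, at 0.17 and −0.01, did not pass (limma adjusted p = 0.449 and 0.975). Genes of the routes of uptake gave 0 of 31 higher and 3 lower (9.68%, against 4.46% of all genes) for endocytosis and macropinocytosis, and 0 of 21 in either direction for heparan sulfate proteoglycans, the surface sugars to which cationic peptides bind. At an unadjusted p under 0.05 these lists had 0 and 1 higher, and 7 and 2 lower. Lysosome genes had 1 of 26 higher (3.85%, against 3.42% of all genes) and 2 lower (7.69%). Autophagy genes had 0 of 19 higher and 3 lower (15.8%). Without any 1 array, 0 to 1 of the endocytosis genes and 0 of the lysosome and autophagy genes passed.

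Most other glycolysis genes did not pass. Of 19 tested genes of glycolysis other than GAPDH, 2 were higher (10.5%, against 3.42% of all genes) and 0 lower. Their median was −0.02, and 3 were higher and 2 lower at an unadjusted p under 0.05. The 2 risen genes were the glucose transporter SLC2A3 (log2 0.39, SE 0.096, limma adjusted p = 0.0315) and the phosphofructokinase PFKP (log2 0.29, SE 0.078, limma adjusted p = 0.0468). Both lost their call whichever array was left out. Of the pentose phosphate and NADPH genes, RPIA, ribose 5-phosphate isomerase, fell by 0.51 (SE 0.068, limma adjusted p = 0.00185). It was the single one of 10 to pass (10%, against 4.46% of all genes lower). The tricarboxylic acid cycle (17 genes) and the nuclear-encoded respiratory chain (50 genes) had 0 calls in limma, with medians of −0.03 and 0.00, and 2 and 6 at an unadjusted p under 0.05. Proteasome subunits (28 genes), spliceosome proteins (34) and reference genes (12, among them ACTB at 0.03 and EEF1A1 at −0.01) also had 0 at adjusted p, and 2, 6 and 2 unadjusted. With the replicate axis as a covariate, these lists had up to 2 calls each.

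Cholesterol synthesis genes rose in part. Of 20 tested, 6 were higher (30%, against 3.42% of all genes) and 0 lower, with a median of 0.16, but 1 gene passed whichever of the 4 arrays was left out. That gene was HMGCS1, the synthase before HMG-CoA reductase, at 11.99 and 12.09 with PTD-DRBD, against 11.32 and 11.22 in the control (log2 0.77, SE 0.082, limma adjusted p = 0.000477). The largest of the others, whose calls were lost whichever of the 4 arrays was left out, were MVD at 0.48, SC5D at 0.41 and NSDHL at 0.35 (limma adjusted p = 0.036, 0.0117 and 0.0124). INSIG1, a sterol sensor, was at −0.24 and did not pass (limma adjusted p = 0.126). Of 18 NRF2 genes, 3 were higher (16.7%) and 1 lower (5.56%), against 3.42% and 4.46% of all genes, and 1 to 2 were higher and 0 to 1 lower without 1 array. GCLM, a glutathione synthesis subunit, at 0.43 and PIR, a nuclear iron-binding protein, at −0.41 lost their calls without the second control or the second PTD-DRBD array (adjusted p up to 0.0674 and 0.0527). HMOX1, haem oxygenase 1, was at 9.98 and 9.89 with PTD-DRBD, against 9.34 and 9.31 in the control (log2 0.61, SE 0.072, limma adjusted p = 0.000918).

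**Figure D4:**
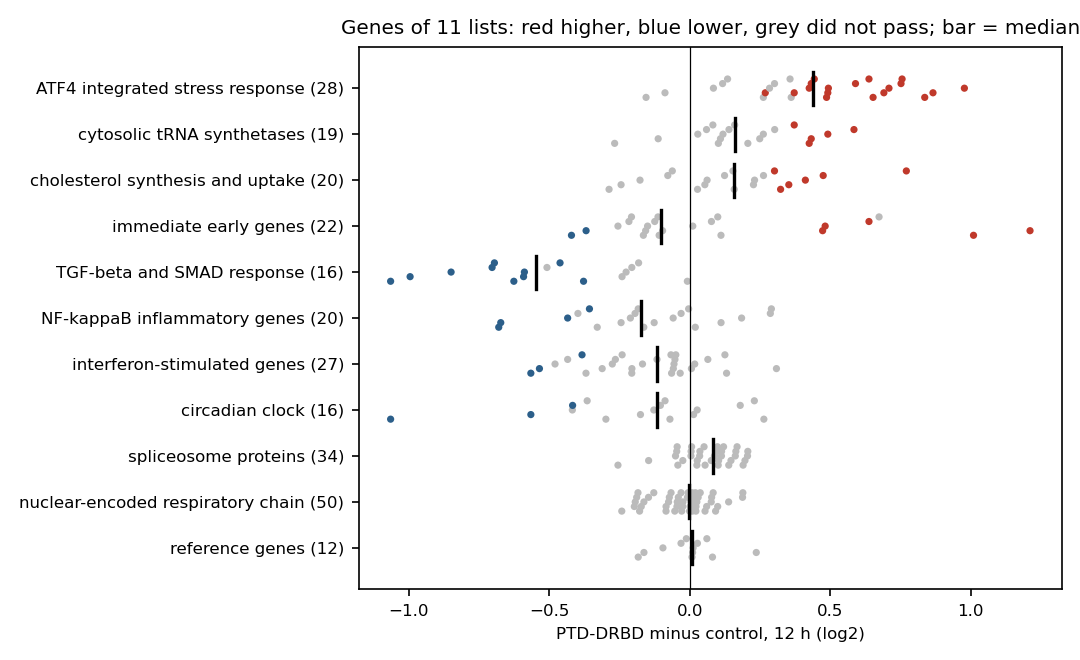
Each point is a tested gene of the list named on the left, with the number of tested genes in parentheses, at its log2 difference of PTD-DRBD minus control at 12 h. Red genes were higher and blue genes lower at an adjusted p under 0.05, grey genes did not pass, and the black bar is the list's median. The medians of the ATF4 list (0.44) and the TGF-beta and SMAD list (−0.55) lie farthest from 0.

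Other lists are given beside the 3.42% of all genes that were higher and the 4.46% lower. Among 14 matrix proteases and inhibitors 2 were higher (14.3%), MMP10 and SPINT2, and 2 lower (14.3%). The lower ones were MMP9 at −0.54 and TIMP2 at −0.49 (limma adjusted p = 0.00162 and 0.00674), and TIMP2 lost its call without the first control or the first PTD-DRBD array. Of the YAP and TEAD targets 1 of 21 was higher (4.76%) and 3 lower (14.3%), or 2 lower without any 1 array, with IGFBP3 at 8.75 and 8.79 with PTD-DRBD, against 9.64 and 9.51 in the control (log2 −0.81, SE 0.093, limma adjusted p = 0.000773). Of the Notch and Wnt genes 1 of 12 was higher (8.33%) and 3 lower (25%), or 0 and 2 to 3 without 1 array, and JAG1, a Notch ligand, was at 6.45 and 6.66, against 7.22 and 7.10 in the control (log2 −0.61, SE 0.091, limma adjusted p = 0.0033). Among BCL2 family genes and death receptors 1 of 25 was higher (4%) and 3 lower (12%), or 1 and 0 to 1 without 1 array. BAK1, an effector of mitochondrial apoptosis, was at 9.04 and 8.89 with PTD-DRBD, against 8.30 and 8.39 in the control (log2 0.62, SE 0.078, limma adjusted p = 0.00128). TP53INP1, a p53-induced autophagy and death regulator, fell by 0.66 (SE 0.10, limma adjusted p = 0.00404) in this p53-null line. DNA replication and mitosis genes had 1 of 36 (2.78%) and 0 of 31 higher, and 0 and 1 (3.23%) lower. Of the clock genes 0 of 16 were higher and 3 lower (18.8%), or 2 lower without any 1 array, BHLHE40 among the 3, and CIART, a clock repressor, was at −0.57 (limma adjusted p = 0.00343).

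The 24 h arrays are separate samples, and a gene short of the threshold there need not have lost its change. Of the 414 genes higher at 12 h, 104 or 25.1% were also higher and 9 lower at 24 h, where 5.87% of all genes were higher. Of the 541 lower genes, 219 or 40.5% were lower and 6 higher at 24 h, where 8.15% of all genes were lower. The shared genes made up 14.6% of the 24 h rises and 22.2% of the 24 h falls. At 24 h 322 of the 414 genes and 460 of the 541 genes had the sign of their 12 h change. The share of all genes with the same sign is not given. The median of the 414 was 0.41 at 12 h and 0.15 at 24 h, and that of the 541 was −0.44 and −0.25. By the direct test described below, the effect differed with time for 22 and 12 of these genes. In the ATF4 list, 4 of 28 genes were higher and 1 lower at 24 h (median 0.05), and DDIT3 was still at 0.98 (limma adjusted p = 0.000816). In the TGF-beta and SMAD list 7 of 16 were lower and 1 higher at 24 h (median −0.32). Cholesterol genes had 0 of 20 higher and 7 lower in limma at 24 h (median −0.22).

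The change of the PTD-DRBD effect between the times was tested directly, and 44 genes or 0.363% passed, 15 (0.124%) with a higher and 29 (0.239%) with a lower effect at 24 h. Without 1 of the 8 arrays the count lay between 10 and 85. Genes ranked by their 12 h change share the 12 h arrays with this difference, so that a smaller effect at 24 h is partly built into their choice. TPPP3 was detected on none of the 4 PTD-DRBD and control arrays at 24 h, and its effect was lower at 24 h than at 12 h in the fit (limma adjusted p = 0.00267), with no exact size because the 12 h control was undetected too. HMGCS1 was at −0.34 at 24 h (limma adjusted p = 0.0228) and 0.77 at 12 h, a difference of −1.11 (limma adjusted p = 0.00267). NFKB2, an NF-kappaB subunit, was at 0.66 at 24 h and −0.43 at 12 h, a difference of 1.09 (limma adjusted p = 0.00572). CIART was at 0.59 at 24 h and −0.57 at 12 h, a difference of 1.16 (limma adjusted p = 0.00267). NOL12, GPR137B and ZNF467 were low at both times, at −1.55, −1.51 and −0.98 at 24 h (limma adjusted p = 8.3e-05, 2.83e-05 and 0.000116).

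Lipofection of the same target at 12 h was set against PTD-DRBD directly. The effects of the routes share the control arrays, and their values are given side by side without an overlap. Between the routes 1793 genes or 14.8% differed, 1004 higher (8.29%) and 789 lower (6.51%) with PTD-DRBD. GAPDH was lower with PTD-DRBD by −2.09 (limma adjusted p = 9.05e-08). AMHR2 and TPPP3 were detected on neither lipofection array. AMHR2 was at least 5.3-fold higher with PTD-DRBD (means 7.46 with PTD-DRBD and 4.81 with lipofection, limma adjusted p = 9.05e-08) and TPPP3 at least 2.83-fold (means 6.56 and 4.81, limma adjusted p = 9.23e-06), both on background-corrected values. TAFA3 and NPTX1 were higher by 1.43 and 1.26 (limma adjusted p = 1.43e-05 and 7.48e-05), and SPINT2, detected on 1 of 2 lipofection arrays, by 1.31 (limma adjusted p = 1.7e-05). With PTD-DRBD against control, TAFA3 and NPTX1 were at 0.30 and 0.31 and did not pass (limma adjusted p = 0.0955 and 0.13). With lipofection against control they were lower, at −1.13 and −0.94 (limma adjusted p = 6.03e-05 and 0.00055). On the lower side stood the small RNAs RN7SK, RPPH1 and SNORD15B, at −2.52, −2.40 and −2.33, and HMOX1 at −2.03 (limma adjusted p = 1.43e-05, 1.43e-05, 2.58e-06 and 9.05e-08). The 3 small RNAs were at 0.55, 0.35 and 0.34 with PTD-DRBD against control and did not pass there.

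For the 2 leading lists the routes differed in part. In the ATF4 list lipofection had 16 of 28 genes higher (4.95% of all genes) and 0 lower, with a median of 0.35, and between the routes 4 genes were higher and 4 lower with PTD-DRBD. ASNS was higher with PTD-DRBD by 0.53, and DDIT3 and ATF3 were lower by −0.74 and −0.87 (limma adjusted p = 0.000909, 0.00119 and 0.000116). In the TGF-beta and SMAD list lipofection had 6 of 16 genes lower (6.92% of all genes) and 0 higher, with a median of −0.11, and between the routes 2 genes were higher and 6 lower with PTD-DRBD. BHLHE40 was lower with PTD-DRBD by −1.06 (limma adjusted p = 6.5e-05). SMAD6, undetected with PTD-DRBD, was lower by at least 1.56-fold on background-corrected values (means 4.99 with PTD-DRBD and 5.73 with lipofection, limma adjusted p = 0.000633). Outside these 2 lists, CDKN2B, at −0.01 with lipofection, was lower with PTD-DRBD by −0.93 (limma adjusted p = 0.000509). Also outside both lists, NOL12 was at −1.65 with PTD-DRBD and −1.53 with lipofection, and PRDM1 at −0.96 and −0.95. Their differences between the routes were −0.12 (95% interval −0.37 to 0.13) and −0.00 (95% interval −0.17 to 0.17) and did not pass (limma adjusted p = 0.544 and 0.986).

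**Figure D5:**
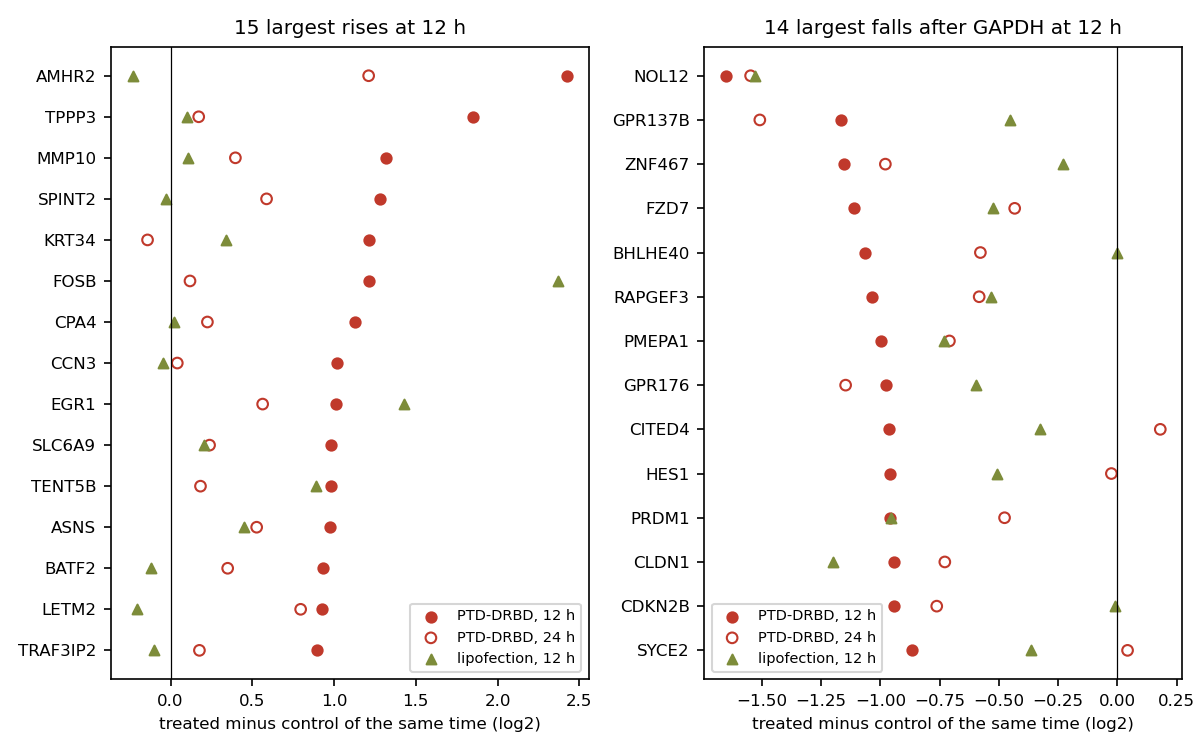
For the 15 largest rises (left) and the 14 largest falls after GAPDH (right) of PTD-DRBD at 12 h, the horizontal axis gives the log2 difference to the control of the same time. Filled red circles are PTD-DRBD at 12 h, open red circles PTD-DRBD at 24 h and green triangles lipofection at 12 h. Marks are fitted differences, also where a group was not above background. NOL12 has all 3 marks close together, while AMHR2 and TPPP3 stand apart at 12 h with PTD-DRBD.

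The authors' deposited table of changes lists 45 probes for the same arrays, 18 with a rise and 27 with a fall of at least 1.6-fold, of which 41 have 1 named gene. In the fit of all kept probes each of the 45 passed with the same sign. That table was made from the same 4 arrays and is no separate evidence. Within genes, 186 further probes of 138 called genes could be set beside the main one. The sign was the same for 155 of them, 29 also passed, and 0 passed with the opposite sign. Further probes of TIMP2 and SC5D, at −0.41 and 0.23, did not pass (limma adjusted p = 0.114 and 0.325).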

How the data were processed

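RNA of H1299 cells was purified on RNeasy columns with DNase I, labelled as biotin cRNA with the MessageAmp kit and read on Illumina arrays of 48701 probes, per the labels' protocols. The deposited non-normalized table gives raw intensity per probe and array from BeadStudio (version not given), per the submitters' processing notes, and beside it a detection p-value, per the file headers. The authors' normalized intensities, of a method not given in the sources used here, served as an alternative. The authors' deposited table of changes holds a signed score, the fold of 2 treated arrays over control, and its values were only compared.

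The neqc function of limma 3.58.1 (R 4.3.3) corrected background from the detection p-values, added an offset of 16, applied quantile normalization and gave log2 values. The offset understates the folds of dim genes. A probe was kept where both arrays of some group had a detection p under 0.05, which left 19631 probes (40.3%). Of all probes 23687 had 1 gene by the platform annotation, 35 several and 24979 none, and 23651 gene identifiers matched the RefSeq table. The brightest probe stood for each of 12117 genes. Group means of the 6 groups were fitted over all 12 arrays with limma (6 residual and 5.3 prior degrees of freedom), with Benjamini and Hochberg adjustment over all genes at 0.05. An exact permutation test of 2 arrays against 2 cannot go below p = 0.333. The number of arrays limits the precision, and the median SD between replicates was 0.0805 log2 for PTD-DRBD and 0.067 for control. On simulated data with 200 changed genes, all of those changed by 1 log2 were recovered, and 72% and 74% of those changed by −0.5 and 0.5. Of 181 calls there, 8 were false. The simulated noise was independent between genes and lacked the main axis of replicate differences, so these shares need not hold for the real arrays.

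A gene undetected on all arrays of 1 group has only a bound: the mean of the group that detected it, less the mean over the dim arrays of its own value or, where higher, that of the array's dimmest detected probe. Named genes were GAPDH, the 15 largest rises and falls that passed with no overlap of arrays, up to 4 passing members per list, the 5 largest in each direction of the other comparisons, reference genes and line markers. LINC00472 was passed over as a clone name. Other members of the ATF4, TGF-beta and immediate early lists, and of the cholesterol list, were named after their values were seen. The members, the 45 lists and the tests were chosen with earlier results of these data known. Alternatives were other normalizations, filters, probes, thresholds and array subsets, an intensity trend with robust moderation, a replicate axis as covariate (36.1% of the replicate variation), and each array left out, which leaves a lone array assumed to vary like the other groups.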

Additional observations from a re-analysis of the deposited data

Results flagged for a closer look

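The effect of PTD-DRBD differed between 24 h and 12 h, by the test of the difference itself in limma, for 20 of the named genes. Of all 12117 genes, 44 or 0.363% passed this test. Some of the 20 were named because they had the largest differences in this comparison. Others were named for their 12 h change, which enters the difference. The count of 20 thus follows in part from the choice of genes and shows no excess. For 14 of the 20 each of the 4 groups had an array above background. For the other 6, all of them high at 12 h, at least 1 group had none, so that their values are fitted differences and not sizes. These 24 h minus 12 h values were −1.21 for AMHR2, −1.68 for TPPP3, −0.92 for MMP10, −1.35 for KRT34, −1.09 for FOSB and −0.90 for CPA4. Among the 14, the difference was −0.98 for CCN3 and −0.80 for TENT5B, which were high at 12 h. In the metabolic and stress lists it was −1.11 for HMGCS1, −0.90 for ACSS2, which makes acetyl-CoA from acetate, and −0.72 for TRIB3. ARID5B, a chromatin-binding factor, had −1.21, with −0.60 at 24 h and 0.61 at 12 h, and PYROXD1, an oxidoreductase, had −1.17, with −0.43 at 24 h and 0.75 at 12 h. For genes that were low at 12 h the difference was 1.15 for CITED4, 0.93 for HES1, 1.09 for NFKB2, 0.61 for PIR and 1.16 for CIART. MXD3, a MYC antagonist, had 1.00, with 0.29 at 24 h and −0.70 at 12 h. DPP6 had 1.12, with 0.74 at 24 h and −0.38 at 12 h, where it did not pass. The limma adjusted p of these differences lay between 0.00267 for TPPP3 and 0.0427 for TENT5B.

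A signal also appeared in probes left out of the gene comparisons for want of a gene name. Probe ILMN_1866901 was detected on neither PTD-DRBD array, at a raw intensity of 63.9 and 64.3, and on both control arrays, at 290.1 and 283.9. It was thus at least 6.43-fold lower with PTD-DRBD, with means of 4.65 with PTD-DRBD and 7.78 in the control (fitted log2 −3.13, limma adjusted p = 3.35e-07). At 24 h PTD-DRBD gave a fitted difference of −2.85, and lipofection gave −1.96 at 12 h. Of 5588 kept probes without a single named gene, 51 were higher and 65 lower, or 2.08%, against 4.76% of the probes with 1 gene in the same fit.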

How the results depend on the processing

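No paired analysis was possible because the labels give no replicate numbers that groups share. The 955 genes changed with PTD-DRBD became 488 with only the 4 arrays compared, 1677 with the replicate axis as a covariate, 309 to 434 without 1 array, and 85 or 86 at 1.6-fold with or without the test. The cause of the first 2 shifts was not tested. The other 7 settings gave 896 to 1259. Between the routes, 1793 genes became 700 to 1636 without 1 array and 196 at 1.6-fold with or without the test. The 44 genes whose effect differed with time were the least stable count: 284 with quantile normalization alone, 273 on the authors' values, 68 with cyclic loess, 103 among genes detected on all 8 arrays, 294 with the intensity trend, 22 on those 8 arrays alone, 10 to 85 without 1 array, and 148 at 1.6-fold with no test. The 18 ATF4 list genes became 7 and the 10 TGF-beta and SMAD genes 5 at 1.6-fold with or without the test. They were 13 to 22 and 7 to 13 under the other settings, with 0 in the opposite direction. GAPDH ran from −4.15 to −3.26 and passed throughout. Of 111 named genes that passed, 52 kept direction and call in every setting, none changed direction, and 256 of 1318 gene and setting pairs fell short of the threshold. Of 159 named genes, 3 moved by over 1.5-fold without background correction, AMHR2, TPPP3 and MMP10, to 2.95, 2.11 and 1.65-fold.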
